A study of Rattus norvegicus with 7 samples.

Results

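The matrix-degrading proteases and the inhibitors that restrain them were followed in rat bone marrow mesenchymal stem cells (rMSCs) kept for 4 h on 3 surfaces. The group held 10 of the 17147 genes with a row in the expression tables, chosen by symbol: the inhibitors Timp1, Timp2 and Timp3, the matrix metalloproteinases Mmp2, Mmp3, Mmp9, Mmp13 and Mmp14, and the aggrecanase-type proteases Adamts1 and Adamts5. The group was put together because Timp3 was high on tissue culture plastic (TCP) and Adamts1 differed between the polymer films, so these 2 differences are described here without a test. The films were made of polycaprolactone (PCL), a degradable polyester, or of ISB-P, a polyurethane copolymer built from PCL diol, hexamethylene diisocyanate and propoxylated isosorbide. The cells had been isolated from the bone marrow of a male Sprague-Dawley rat aged 6 weeks, and 20000 of them were seeded in serum-containing medium on TCP or on gas-sterilised films of 16 mm diameter. There were 3 libraries from PCL, 3 from ISB-P and 1 from TCP; no group carried a genetic change or a drug treatment in its labels. Values are FPKM, fragments scaled by transcript length and by the size of the library, so that levels of different genes can be set side by side. The labels do not say whether the replicates were separate cultures, so the p-values measure the spread between these libraries, which may be technical.

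Metalloproteinases of the MMP family are secreted or membrane-bound zinc enzymes, made as inactive precursors, that cut collagens, fibronectin and other matrix proteins. TIMPs bind the active site of these enzymes and block it; Timp3 is the family member that stays bound to the matrix and also inhibits ADAM and ADAMTS enzymes, while Timp2 both inhibits Mmp2 and takes part in its activation by the membrane enzyme Mmp14. Adamts1 and Adamts5 cut the large proteoglycans aggrecan and versican. Stromal cells of the bone marrow are known to make both the proteases and the inhibitors, and the balance between them governs how fast pericellular matrix is turned over.

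Promoter sequences were held in the RefSeq table (build GRCr8) for 6 of the 10 genes, namely Timp1, Timp2, Timp3, Mmp3, Mmp13 and Adamts1. The 250 bases before the annotated start are printed for 4 genes, Timp3 and Adamts1 because they differed most between the surfaces and Mmp3 and Mmp13 because they varied most with the replicate number. They are Timp3 at chr7:19459559-19459808, minus strand, Adamts1 at chr11:38427385-38427634, minus strand, Mmp3 at chr8:12925031-12925280, plus strand, and Mmp13 at chr8:12782579-12782828, plus strand. Each is written 5′ to 3′ and ends at the base before the start. Capitals mark the motif TGANTCA, recognised by AP-1 factors, and the TATA-box motif TATAAA.
Timp3: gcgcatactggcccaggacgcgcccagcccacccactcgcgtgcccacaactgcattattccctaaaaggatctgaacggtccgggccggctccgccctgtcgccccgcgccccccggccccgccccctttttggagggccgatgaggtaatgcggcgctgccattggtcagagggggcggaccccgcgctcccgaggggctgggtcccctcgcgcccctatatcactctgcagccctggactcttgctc
Adamts1: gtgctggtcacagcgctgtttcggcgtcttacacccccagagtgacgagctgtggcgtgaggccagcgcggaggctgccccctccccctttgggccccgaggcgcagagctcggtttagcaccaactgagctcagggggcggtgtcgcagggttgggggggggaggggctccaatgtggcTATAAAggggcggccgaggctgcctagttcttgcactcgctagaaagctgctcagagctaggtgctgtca
Mmp3: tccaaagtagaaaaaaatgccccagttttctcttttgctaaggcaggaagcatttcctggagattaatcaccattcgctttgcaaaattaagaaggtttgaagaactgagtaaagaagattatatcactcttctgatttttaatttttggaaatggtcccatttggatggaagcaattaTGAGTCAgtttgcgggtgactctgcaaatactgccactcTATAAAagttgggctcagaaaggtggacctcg
Mmp13: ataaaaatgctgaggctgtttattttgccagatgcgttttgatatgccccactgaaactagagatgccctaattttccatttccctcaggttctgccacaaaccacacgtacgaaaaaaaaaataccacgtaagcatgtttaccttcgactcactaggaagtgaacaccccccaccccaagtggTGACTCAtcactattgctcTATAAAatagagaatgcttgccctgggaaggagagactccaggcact

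All 4 motifs named here were searched on both strands of each window. The motif TGANTCA was found in the windows of Mmp3, from -71 to -65, and Mmp13, from -66 to -60, and in no other of the 6; it is held by 6.36% of the 27457 rat promoter windows. TATAAA lay from -32 to -27 in Mmp3, from -47 to -42 in Mmp13 and from -70 to -65 in Adamts1, against 13.1% of all windows. The GC box GGGCGG was found in Timp1, Timp2, Timp3 and Adamts1 but not in Mmp3 or Mmp13, and in 32.4% of all windows. A heat shock element core, GAANNTTC, was found in 0 of the 6 windows and in 7.02% of all. None of the marked stretches overlapped another motif. The GC content was 69.6% for Timp3 and 65.2% for Adamts1, and 38.8% for Mmp3 and 44.4% for Mmp13. The motifs were chosen after the sequences were seen, and a match is a description of letters only.

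In the film libraries Timp1 and Timp2 had the highest levels of the group, and Timp3 was among the lowest. The order of FPKM was Timp1, Timp2, Mmp2, Mmp14, Adamts1, Mmp9, Mmp3, Mmp13, Timp3 and Adamts5. The ranges of neighbours did not overlap from Timp1 to Mmp2 or from Mmp14 through Mmp3. They overlapped between Mmp2 and Mmp14 and between Mmp3 and Mmp13, where the upper gene led in 5 of 6 film libraries, and between Mmp13, Timp3 and Adamts5, where it led in 6 of 6. On TCP, Timp3 stood above Mmp13 and Mmp13 above Mmp3.

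**Figure D1:**
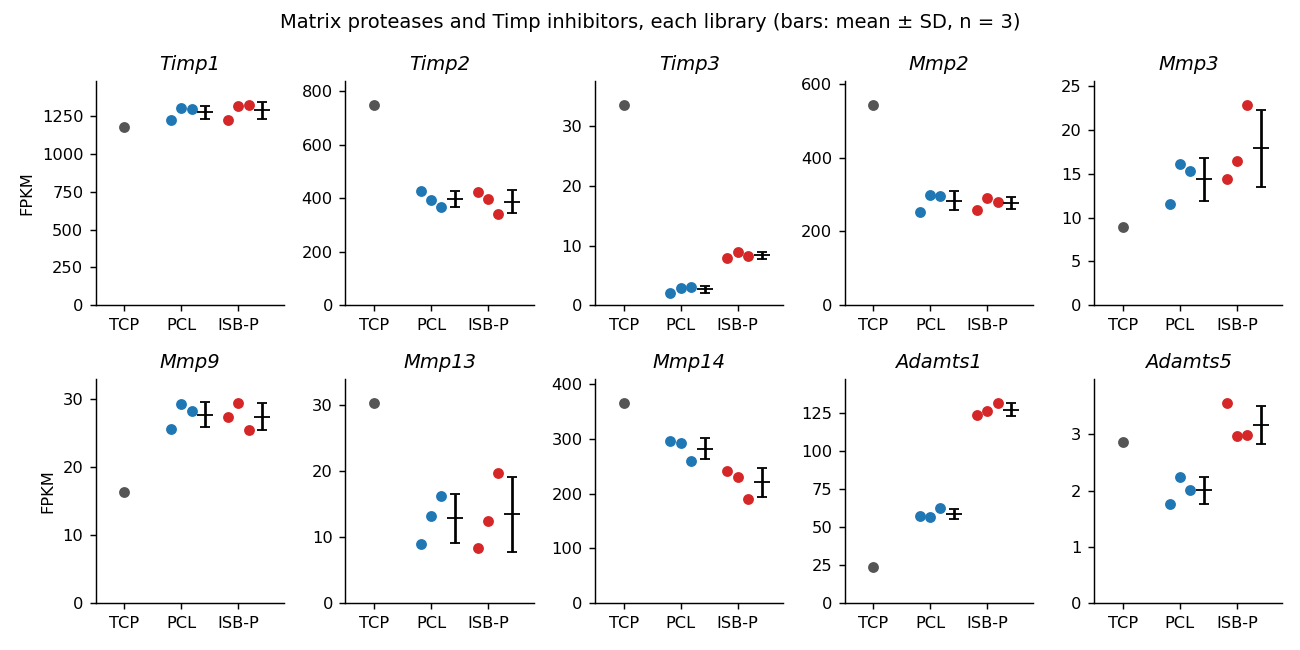
Expression of the 10 genes in each library in FPKM, on linear axes that start at 0; each point is a library and the bars give the mean ± SD of 3 film libraries. Timp3 is highest on TCP and lowest on PCL, Adamts1 is lowest on TCP and highest on ISB-P, and Timp1, Timp2, Mmp2 and Mmp9 overlap between the films.

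Of the inhibitors, Timp1 was the most abundant gene of the group. It was at 1178 FPKM on TCP, at 1224, 1302 and 1300.05 FPKM in PCL replicates 1, 2 and 3, and at 1224, 1319.7 and 1325 FPKM in ISB-P replicates 1, 2 and 3. The films overlapped, and replicate 1 was the lowest on both. The fitted difference, ISB-P minus PCL on the log2(FPKM + 1) scale, was 0.02 (95% interval -0.21 to 0.24, adjusted p = 0.976). All p-values are from limma, adjusted over the 9467 genes tested between the films.

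Timp2, which binds Mmp2 and its precursor, measured 748 FPKM in the TCP library, 426, 394 and 367 FPKM in the PCL libraries and 424, 396 and 340.0 FPKM in the ISB-P libraries. The films overlapped, and on both replicate 1 was the highest and replicate 3 the lowest. The log2 difference was -0.04 (95% interval -0.35 to 0.27, adjusted p = 0.963).

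Timp3, the matrix-bound inhibitor, was at 2.00, 2.97 and 3.00 FPKM on PCL and at 7.85, 8.93 and 8.27 FPKM on ISB-P. Every ISB-P library was above every PCL library. The means were 8.35 ± 0.543 FPKM on ISB-P and 2.66 ± 0.567 FPKM on PCL (SD, n = 3 each), a ratio of 3.14, and the ratios within replicate numbers 1, 2 and 3 were 3.92, 3.01 and 2.76. Timp3 rose on ISB-P by 1.37 on the log2(FPKM + 1) scale (SE 0.15, adjusted p = 0.00935). With 1 library left out the adjusted p lay between 0.0202 and 0.0938, and the call was lost without PCL replicate 2 (0.0732) or ISB-P replicate 2 (0.0938).

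Among the 9 genes other than Adamts1, Timp3 was the gene called, or 1 of 9, and none of the others was called without the block described below. Of all tested genes, 1.72% were called (163 of 9467), 1.10% higher and 0.623% lower on ISB-P. Timp3 was itself picked, for its high TCP level, so counts here that include it cannot be read as a surplus over that share. The film libraries carry shared replicate numbers, and libraries with the same number deviated together. When the replicate number entered the fit as a block, 3 of the 9 were called, Timp3 (adjusted p = 4.67e-05) and Adamts5 higher and Mmp14 lower, where 24.4% of all tested genes were called, 13.0% higher and 11.4% lower. At an unadjusted p under 0.05 without the block there were also 3 of 9, against 12.1% of all tested genes. The median log2 difference of the 9 genes was 0.02, the same to 2 decimals as that of all tested genes, 0.02. The libraries of the films did not overlap for 3 of the 9 genes, Timp3 and Adamts5 on the higher side and Mmp14 on the lower, against 17.7% of all tested genes, 8.17% higher and 9.54% lower.

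**Figure D2:**
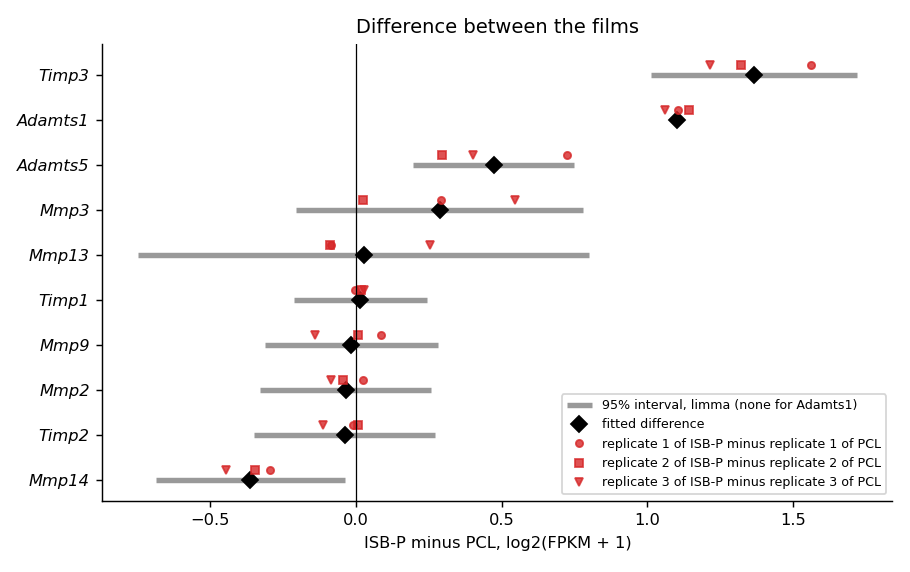
Fitted difference between ISB-P and PCL on the log2(FPKM + 1) scale (diamonds), with its 95% interval from limma, and the 3 differences within replicate numbers (small symbols). Timp3, Adamts1, Adamts5 and Mmp3 lie above 0 and Mmp14 below 0 in 3 of 3 numbers. For Mmp3 the difference in number 2 was only 0.02, and its film libraries overlap. The share of all tested genes on the same side in 3 of 3 numbers is not given here. No interval is drawn for Adamts1, which was picked on this difference.

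Of the proteases, Mmp2, the gelatinase that Timp2 and Mmp14 act on, measured 543 FPKM in the TCP library, 254, 299 and 297 FPKM in the PCL libraries and 258, 290.2 and 280.5 FPKM in the ISB-P libraries. Replicate 1 was the lowest on both films, and the films overlapped. The log2 difference was -0.03 (95% interval -0.33 to 0.26, adjusted p = 0.963).

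Mmp14, the membrane-type collagenase that activates Mmp2, measured 366 FPKM in the TCP library, 295, 292 and 259 FPKM in the PCL libraries and 241, 229.9 and 190.4 FPKM in the ISB-P libraries. Every ISB-P library was below every PCL library, and replicate 3 was the lowest on both films. The means were 220.3 ± 26.4 FPKM on ISB-P and 282 ± 19.8 FPKM on PCL (SD, n = 3 each). The ratios within numbers were 0.815, 0.787 and 0.734. The log2 difference of -0.36 (SE 0.14) did not pass the test without the block (adjusted p = 0.346) and passed it with the block (adjusted p = 0.00547).

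Mmp9, the second gelatinase, measured 16.4 FPKM in the TCP library, 25.7, 29.4 and 28.2 FPKM in the PCL libraries and 27.4, 29.5 and 25.6 FPKM in the ISB-P libraries. The films overlapped throughout. The log2 difference was -0.01 (95% interval -0.31 to 0.28, adjusted p = 0.981).

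Mmp3 (stromelysin-1), which cuts proteoglycans and activates other MMPs, and Mmp13 (collagenase-3), which cuts fibrillar collagen, differed more between replicate numbers than any other gene of the group. Mmp3 measured 8.96 FPKM in the TCP library, 11.6, 16.1 and 15.3 FPKM in the PCL libraries and 14.5, 16.4 and 22.8 FPKM in the ISB-P libraries. Mmp13 measured 30.3 FPKM in the TCP library, 8.94, 13.2 and 16.3 FPKM in the PCL libraries and 8.38, 12.4 and 19.6 FPKM in the ISB-P libraries. Within each film both genes were lowest in replicate 1, and among the film libraries both were highest in ISB-P replicate 3. Averaged over the films, the range over the 3 numbers on the log2(FPKM + 1) scale was 0.97 for Mmp13 and 0.50 for Mmp3, and 0.05 to 0.28 for the other 8 genes. The film difference was 0.29 for Mmp3 (95% interval -0.20 to 0.78, adjusted p = 0.750, with the block 0.0766) and 0.03 for Mmp13 (95% interval -0.75 to 0.80, adjusted p = 0.989, with the block 0.852). The Mmp13 interval spans a change in either direction that is larger than the difference seen for Mmp14 or Adamts5.

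Adamts1 measured 23.5 FPKM in the TCP library, 57.0, 56.8 and 62.7 FPKM in the PCL libraries and 124, 127 and 132 FPKM in the ISB-P libraries. The 3 surfaces did not overlap, with TCP the lowest and ISB-P the highest. The means were 127 ± 4.13 FPKM on ISB-P and 58.8 ± 3.34 FPKM on PCL (SD, n = 3 each), and the ratios within numbers were 2.17, 2.23 and 2.10. This is the difference that placed the gene in the group.

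Adamts5, the gene next to Adamts1 in the RefSeq annotation, was far lower in level. It measured 2.87 FPKM in the TCP library, 1.76, 2.24 and 2.02 FPKM in the PCL libraries and 3.56, 2.98 and 2.99 FPKM in the ISB-P libraries. Every ISB-P library was above every PCL library, and the TCP library lay between the films. The log2(FPKM + 1) difference of 0.47 (SE 0.12) did not pass the test without the block (adjusted p = 0.132) and passed it with the block (adjusted p = 0.0151). The ratios within numbers were 2.02, 1.33 and 1.48, and the ratio of means was 1.58, against 2.17 for Adamts1.

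Summed over the genes of the group alone, the inhibitors lay above the proteases on every surface. Mmp genes outside the group are left out of these sums. Of these, Mmp19 averaged 105 FPKM over the film libraries and Mmp23 103 FPKM, against 119 and 151 FPKM on TCP. The ratios and shares below therefore depend on which genes were picked. The 3 Timp genes summed to 1684 ± 36.3 FPKM on ISB-P and 1674 ± 23.6 FPKM on PCL, and to 1959.9 FPKM on TCP. The 5 Mmp genes summed to 555 ± 20.5 FPKM on ISB-P and 620.5 ± 27.7 FPKM on PCL, and to 964 FPKM on TCP. The summed Timp level over the summed Mmp level was 3.03 ± 0.0632 on ISB-P (range 2.98 to 3.10), 2.70 ± 0.0817 on PCL (range 2.61 to 2.78) and 2.03 on TCP (SD, n = 3 per film). The ranges of this ratio did not overlap between the films, and the value of the single TCP library lay below both. The film difference in the ratio was not tested. The Timp sums were close, and of the 5 Mmp genes only Mmp14 had film libraries that did not overlap. Its mean was 220.3 FPKM on ISB-P and 282 FPKM on PCL. By limma its adjusted p was 0.346 without the block and 0.00547 with it. Mmp2 and Mmp14 together made up 89.4% of the Mmp sum on ISB-P, 91.2% on PCL and 94.2% on TCP, so the ratio is in the main one of Timp1 and Timp2 to these 2 proteases. Timp1 made up 76.5%, 76.2% and 60.1% of the Timp sum. The 2 Adamts genes summed to 131 ± 3.89 FPKM on ISB-P, 60.9 ± 3.35 FPKM on PCL and 26.3 FPKM on TCP, nearly all of it Adamts1. These are ratios of transcripts, not of active protein, and they do not say which inhibitor acts on which protease.

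The TCP library was set against the films as a description, since a single library allows no test. A gene was said to stand apart on TCP when it was over 2-fold from the mean of each film on the log2(FPKM + 1) scale and outside the range of the 6 film libraries. Timp3, at 33.6 FPKM, was 12.6 times its PCL mean and 4.02 times its ISB-P mean, which is what placed it in the group, and it is not counted here. Of the 9 other genes, 1 stood apart on the higher side, Mmp13, where 2.39% of 9537 genes did, and 1 on the lower side, Adamts1, where 5.02% did. Mmp13 was 2.37 times its PCL mean and 2.25 times its ISB-P mean, and it no longer stood apart without PCL replicate 1 or ISB-P replicate 1. Adamts1 was 5.43 times as high on ISB-P and 2.51 times as high on PCL as on TCP.

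The remaining genes did not meet the rule. Timp2 and Mmp2 fell just short of it, Timp2 at 1.89 times the PCL mean and 1.93 times the ISB-P mean, and Mmp2 at 1.92 and 1.96 times. Both passed it under upper quartile scaling and quantile normalization, and Mmp2 also under scaling to a common total. Mmp14 was 1.30 times its PCL mean and 1.66 times its ISB-P mean. Mmp3 was at 0.623 and 0.500 times, and Mmp9 at 0.591 and 0.598 times, the PCL and ISB-P means. Of the 9 genes other than Timp3, Timp2, Mmp2, Mmp13 and Mmp14 were above all 6 film libraries on TCP, or 4 of 9, where 25.7% of all genes were, and Timp1, Mmp3, Mmp9 and Adamts1 were below all 6, or 4 of 9, where 29.4% were. The Timp1 shortfall was small, -0.13 on the log2 scale against ISB-P, and turned to 0.18 under quantile normalization.

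Markers of other cell types were read beside the TCP values. Of 9 leukocyte and macrophage markers, 8 were higher on TCP than in all 6 film libraries, where 25.7% of 9537 genes were. The exception was Cd163, listed at 0 in every library. Of the 8, Ptprc, Aif1 and Mrc1 were under 1 FPKM in most libraries and at 1.48, 2.39 and 1.42 FPKM on TCP. The 9 markers summed to 133 FPKM on TCP. Their sums were 40.4 to 47.9 FPKM in the PCL libraries and 40.6 to 47.2 FPKM in those from ISB-P. Mmp12, the macrophage elastase and a neighbour of Mmp13 (named after its values were seen), was at 42.1 FPKM on TCP and between 12.8 and 31.8 FPKM on the films. The procollagen proteases Adamts2 and Adamts14 were higher on TCP to a like degree as Mmp13, while Mmp9 was lower there than in all 6 film libraries. The part of leukocytes and macrophages in the TCP levels of Mmp13, Timp3 and the other genes was not tested. In bulk RNA, fewer cells of a type and less RNA per cell cannot be told apart. Markers of neutrophils, the classical Mmp9 source, were all under 1 FPKM in every library (4 of 4, S100a9 listed at 0), as were the 4 endothelial markers. The 3 osteoclast markers with a row summed to 13.8 FPKM on TCP and to between 8.35 and 10.2 FPKM on the films. Nearly all of this sum was Acp5, at 13.5 FPKM on TCP. Acp5 alone of the 3 was higher on TCP than in all 6 film libraries. Oscar and Calcr were under 1 FPKM in every library. The 10 mesenchymal markers summed to 18018 FPKM for TCP, 11599 to 13402 FPKM for PCL and 10264 to 13383 FPKM for ISB-P. Most of the sum was Col1a1 and Vim, at 10406 and 5302 FPKM on TCP. Nt5e and Eng were low, at 9.56 and 19.2 FPKM there. Of the 10 markers, 4 were higher on TCP than in all 6 film libraries, where 25.7% of 9537 genes were. Col1a2 was listed at 0 throughout, which in these files may be a failed estimate.

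**Figure D3:**
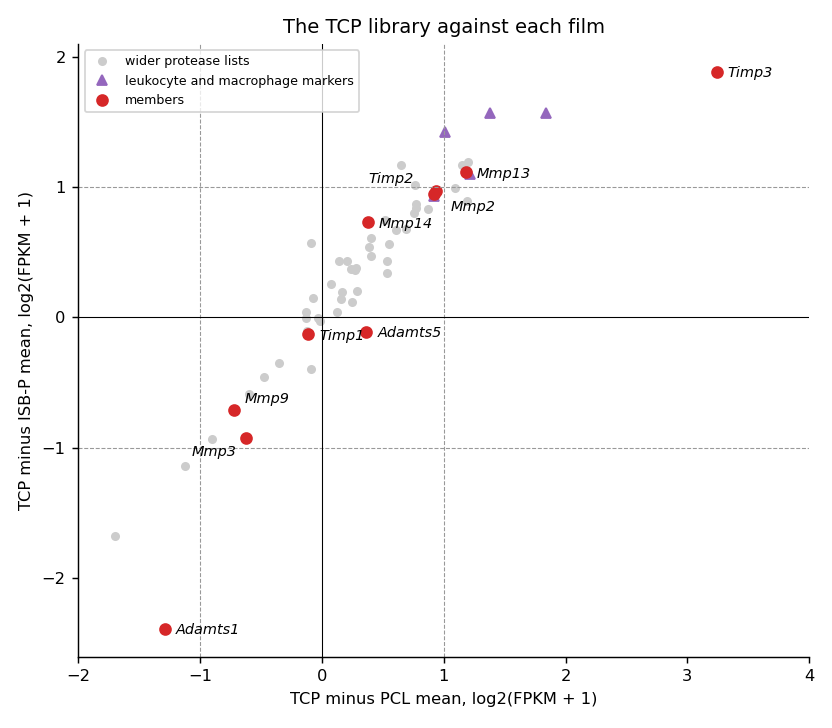
The TCP library minus the PCL mean (x) and minus the ISB-P mean (y), both on the log2(FPKM + 1) scale, for the 10 genes (red), the wider protease lists (grey) and the leukocyte and macrophage markers that passed the filter (triangles); dashed lines mark a 2-fold difference. Timp3 lies farthest to the upper right at 3.24 and 1.89, and Adamts1 to the lower left at -1.29 and -2.39. Mmp13 lies beside the marker Csf1r and also beside Adamts2, Adamts14 and Ctss of the wider lists. The marker Lyz2 lies farther to the upper right than Mmp13, and Itgam lies to its lower left.

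The rest of the matrix proteolysis system was read from lists of 78 further genes, of which 65 have a row and 45 passed the low-value filter; 20 were too low and 7 of these were listed at 0 everywhere. The lists cover the fourth Timp, the remaining Mmp, Adamts and Adam proteases, the plasminogen system, activators and other inhibitors, procollagen processing, cathepsins and noncollagen substrates. Without the block 0 of 45 were called by limma, with 2 of 45 at an unadjusted p under 0.05 (Plau and Adamts10), where 12.1% of all tested genes were under it. With the block 6 of 45 were called lower on ISB-P and 0 of 45 higher. Of all tested genes, 24.4% were called with the block, 11.4% lower and 13.0% higher. The lower calls were thus near the share of all tested genes. They were Plau, Adamts10, Adam19, Plat, Furin and Acan, named after their values were seen. The median log2 difference of the 45 genes was -0.03, with a range of -0.66 to 0.30.

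Plau, the urokinase that turns plasminogen into plasmin, measured 61.6 FPKM in the TCP library, 58.3, 68.4 and 70.1 FPKM in the PCL libraries and 37.2, 40.1 and 46.2 FPKM in the ISB-P libraries. Every ISB-P library was below every other library. The log2 difference was -0.66 (SE 0.14, adjusted p = 0.0930, with the block 4.44e-04). Adamts10, a microfibril-associated family member, measured 21.0 FPKM in the TCP library, 14.1, 14.0 and 11.0 FPKM in the PCL libraries and 10.3, 8.94 and 7.13 FPKM in the ISB-P libraries, a log2 difference of -0.52 (SE 0.17, adjusted p = 0.258, with the block 0.00273). Adamts10 thus lay on the other side of 0 from Adamts1 and Adamts5. Plat, the tissue plasminogen activator, differed by -0.23 (block adjusted p = 0.0352), Adam19 by -0.23 (0.0487), Furin, which trims Mmp14 and Adamts precursors to their active form, by -0.27 (0.0300) and Acan, the aggrecan that Adamts1 and Adamts5 cut, by -0.30 (0.0151).

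Besides Adamts10, the genes with the highest mean over the 6 film libraries in their lists included Timp4, Mmp19, Adam9, Tfpi2, Pcolce, Ctsb and Fn1, and none of these 7 was called by limma with or without the block. Fn1 (fibronectin) averaged 2427 ± 26.5 FPKM on PCL and 2449.9 ± 128 FPKM on ISB-P (SD, n = 3 each). Timp4, the remaining Timp, was low at 1.11 ± 0.135 and 0.873 ± 0.441 FPKM, so Timp1, Timp2 and Timp3 made up nearly all of the family's transcript. Of 45 genes, 3 stood apart on the higher side on TCP, Adamts2 at 20.5, Adamts14 at 23.2 and Ctss at 3.56 FPKM, and 2 on the lower side, Plaur at 143 and Tfpi2 at 188 FPKM; all but Tfpi2 were named after their values were seen. Of all genes, 2.39% stood apart on the higher side and 5.02% on the lower. Adamts2 and Adamts14 cut the amino ends off procollagens, and Ctss is a leukocyte cathepsin.

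**Figure D4:**
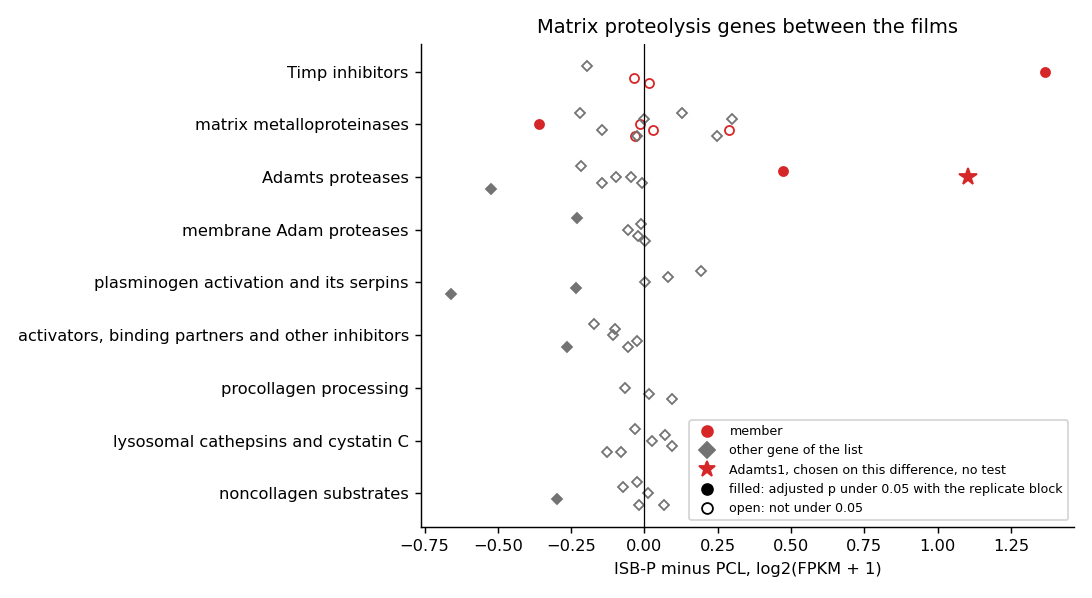
Difference between ISB-P and PCL on the log2(FPKM + 1) scale for each tested gene of the protease lists; circles are the 10 genes except Adamts1 (star, no test), diamonds the other genes, and filled symbols have an adjusted p under 0.05 with the replicate block. Timp3, Adamts1 and Adamts5 stand to the right. The 6 filled diamonds, of 45, all lie to the left of 0, where 11.4% of all tested genes were called lower with the block.

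The genes whose levels over the 7 libraries most resembled those of Timp3 and Adamts1 were sought among the 4802 genes averaging 16 FPKM or more, by Pearson's r on log2(FPKM + 1). For Timp3 they were Wasf2 (0.986), Oraov1 (0.985) and Snai2 (0.984). Wasf2 drives actin branching at the cell edge and Snai2 is the transcription factor Slug. The Snai2 level averaged 20.8 ± 2.65 FPKM for ISB-P and 11.3 ± 1.17 FPKM for PCL (SD, n = 3 each), against 43.3 FPKM for TCP. Wasf2 spanned less, with 41.2 ± 0.726 FPKM for ISB-P, 36.0 ± 0.921 FPKM for PCL and 50.4 FPKM for TCP. For Adamts1 they were Hspe1 (0.997), Fkbp4 (0.997) and Zfand2a (0.996), which encode a mitochondrial co-chaperonin, a co-chaperone of Hsp90 and a stress-inducible zinc finger protein. Zfand2a averaged 583 ± 32.7 FPKM for ISB-P and 117 ± 6.02 FPKM for PCL, against 26.3 FPKM for TCP. For Hspe1 the same values were 429 ± 21.4, 248 ± 7.71 and 144 FPKM, and for Fkbp4 they were 66.2 ± 1.23, 43.7 ± 1.93 and 25.4 FPKM. These 3 genes were picked for likeness to Adamts1, so their shared order of TCP, PCL, ISB-P from low to high follows from the picking. It is no separate result. The points share libraries and surfaces, and so these values describe likeness only.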

How the data were processed

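RNA was sequenced from 7 rMSC libraries (1 TCP, 3 PCL, 3 ISB-P) after 4 h. The deposited values are FPKM per gene, which the authors made with TopHat2 2.0.13 and Cuffdiff 2.2.1 on rn5 after bcl2fastq 2.20.0.422 and cutadapt 1.18, per the submitters' processing notes; the study's methods describe a stranded mRNA kit. The unit was read from the values and these notes. Read counts and depth are unknown. FPKM summed to 542921 to 597954 on PCL, 590628 to 660124 on ISB-P and 539393 on TCP. Strand use in counting is not given in the sources used here, and Timp1 and Timp3 overlap Syn1 (at most 1.51 FPKM) and Syn3 (at most 0.259 FPKM) in RefSeq, and Timp2 overlaps Cep295nl, not analysed here.

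Genes with at least 1 FPKM in 3 of 6 film libraries (9467) were fitted as log2(FPKM + 1) with limma 3.58.1 in R 4.3.3 (trended empirical Bayes), ISB-P against PCL, with Benjamini-Hochberg adjustment and a threshold of 0.05. Differences on this scale understate changes of low genes. The replicate numbers in the labels were checked as pairs: deviations from the group means correlated at 0.887, 0.431 and 0.867 for the same number, so blocked values are given. The fitting script was checked on simulated data of known answer, drawn without a shared effect of replicate number. The check therefore does not cover how the blocked fit behaves when such an effect is present. For TCP, 9537 genes with at least 1 FPKM in 3 of 7 libraries were used. Named genes were the 10 genes, the genes of the wider lists called between the films, the gene of each list with the highest mean over the film libraries, and the 3 nearest patterns; others were named after their values were seen, and 1 gene that the rule names is not reported here. The members and lists were chosen with earlier results of these data known. Of the wider lists, 13 genes were not analysed here. Sequences are from RefSeq, GRCr8; no coordinates were converted. Alternatives were other scalings, a pseudocount of 0.1, no low-value filter, TCP in the fit, the block, and leaving out each replicate.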

Additional observations from a re-analysis of the deposited data

How the results depend on the processing

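Of all 9467 tested genes, 163 were called (104 higher, 59 lower); leaving out 1 library gave 20 to 113 calls (14 to 82 higher, 6 to 31 lower), the replicate block 2307 (1228 higher, 1079 lower), and the block with scaling to a common total, chosen after seeing the data, 2827 (714 higher, 2113 lower). Upper quartile scaling gave 39 lower calls. Among the 9 genes other than Adamts1, 1 was called, Timp3, itself picked for its TCP level. With the block 3 were called, and with the block and common total 3. With a library left out 0 to 1 were called (0 without PCL replicate 2 or ISB-P replicate 2). In the wider lists 0 genes were called, against 1 lower under quantile normalization and under common-total scaling (Plau both times, adjusted p = 0.0319 and 0.0357), 2 without the low-value filter (Plg and Adamts15, higher), 6 lower with the block and 11 lower with the block and common total. On TCP 3 of 10 genes stood apart, counting Timp3, which was chosen for it, 5 under upper quartile scaling, 5 under quantile normalization, and 2 to 3 with a library left out. Scaling to a common total moved the median film difference of all genes from 0.02 to -0.09 and the median TCP minus ISB-P difference from -0.07 to 0.10. No called value changed sign. With 1 TCP library and unknown depth, levels of a few FPKM (Adamts5, Timp3 on PCL) come with no estimate of counting error, and an exact test of 3 against 3 libraries cannot go below p = 0.10. The causes of these shifts were not tested.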
